A study of Bubalus bubalis with 6 samples.

Results

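The genes of cholesterol and fatty acid synthesis, with the factors that control them and the carriers that move sterols, were followed in muscle stem cells (MuSCs) of the water buffalo between proliferation and differentiation. They were chosen by symbol from 38 names, and 37 of them are among the 24616 genes of the deposited gene table. SCD, the stearoyl-CoA desaturase, is the symbol not listed there, and no value is given for it. All 37 had 10 counts or more when the 6 samples were added up and were tested, as were 15576 genes in all.

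The study sequenced polyadenylated RNA of MuSCs that proliferated in growth medium (GM, 3 samples) and of MuSCs moved to differentiation medium (DM, 3 samples), with no genetic change named for either group. The cells were primary cultures from the longissimus muscle of fetuses, and both media were based on DMEM, with fetal bovine serum in GM and a lower share of horse serum in DM, which was given to cells near confluence. Medium, serum, cell density, time in culture and differentiation changed together, so their parts cannot be told apart. The labels do not say whether each sample was a culture or an animal of its own, so the p-values measure only the spread between these samples, which may be technical.

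Cells build cholesterol from acetyl-CoA through mevalonate, farnesyl pyrophosphate, squalene and lanosterol, and build fatty acids from acetyl-CoA through malonyl-CoA. The membrane-bound factors SREBP-1 and SREBP-2, encoded by SREBF1 and SREBF2, turn on most of these genes when sterols in the endoplasmic reticulum run low, because the escort protein SCAP then carries them to the Golgi for cleavage, while INSIG proteins hold the complex back when sterols are plentiful. Liver X receptors (LXRs) respond to oxysterols and turn on genes of sterol export such as ABCA1 and ABCG1. In muscle, cholesterol is a component of the plasma membrane and of its invaginations, and myoblasts remodel their membranes as they fuse.

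Gene counts added up to between 36657735 and 40305237 in a GM sample and to between 35615864 and 38177614 in a DM sample. Levels are given as CPM, counts rescaled to a library of 1000000 after correction by edgeR's TMM factors, and as RPKM, which also divides by gene length, where genes are compared with each other. DM replicate 3 stood apart: the chi-square of its counts against either other DM sample, divided by the degrees of freedom, was 40.5 to 41.4, where the other DM pair gave 11.7 and pairs of GM samples gave 6.22 to 10.6. Of 8 tested MuSC and myoblast markers, PAX3, MYF5 and ITGA7 were called lower in DM, PAX7, CDH15 and NCAM1 were lower and MYOD1 higher by less than 2-fold at an adjusted p under 0.05, and DES did not pass. PAX3 had 4, 6 and 2 counts in GM and 0, 0 and 0 counts in DM samples, and DESeq2 did not call it. MYOD1 had an edgeR adjusted p of 0.05 or more when any sample but DM replicate 3 was left out, up to 0.0886. PAX7 had 18.5 ± 0.174 CPM in GM samples and 9.78 ± 3.25 CPM in DM samples (± SD, n = 3, as throughout), and MYOD1 had 32.5 ± 3.10 CPM in GM samples and 60.5 ± 18.8 CPM in DM samples. This list summed to 3102 to 3337 CPM in GM and 2294 to 2793 CPM in DM samples. Most of it was DES (means of 2274 CPM in GM and 2051 CPM in DM), so the sum says little about the other markers. The 7 tested myocyte and myotube markers, all called higher in DM, summed to 370 to 758 CPM in GM and 4382 to 6206 CPM in DM samples. That sum was highest in DM replicate 3. Of 7 tested fibroblast markers, DCN, LUM, THY1, COL1A1 and COL3A1 were called higher, and PDGFRA and TCF7L2 were higher by less than 2-fold. The list summed to between 24846 and 25068 CPM in GM and between 77035 and 96980 CPM in DM samples, lowest of DM in replicate 3. Most of that sum was COL1A1 (means of 15288 CPM in GM and 44329 CPM in DM) and COL3A1 (8299 CPM in GM and 39253 CPM in DM). Adipocyte markers, which mark cells rich in fatty acid synthesis, summed to 7.04 to 8.39 CPM in GM and 7.54 to 8.89 CPM in DM samples over 7 tested genes, of which FABP4 and CIDEC were called higher and PPARG lower. Within that sum PPARG went from 4.33 CPM in GM to 0.319 CPM in DM and CIDEC from 2.67 to 6.64 CPM. The sum therefore does not show whether adipocyte content changed. The other tested markers stayed at means under 1 CPM in both groups, with 0.0168 and 0.411 CPM for FABP4. ADIPOQ had 0.124 and 0.200 CPM and PLIN1 had 0.113 and 0.378 CPM. The endothelial, macrophage and Schwann cell lists each summed to at most 7.28 CPM in any sample. Of their markers TEK was called higher, and CDH5, VWF, CD68 and NGFR were called lower. The part of the myotube and fibroblast markers in the results on lipid genes was not tested, and in bulk RNA a change in the number of cells of a type and a change in RNA per cell cannot be told apart.

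Most of the cholesterol synthesis genes were higher in DM than in GM samples, while those of fatty acid synthesis differed by less than 2-fold. A gene was called when its absolute log2 fold change was over 1 and its edgeR adjusted p was under 0.05. Of the 37 genes, 12 were called higher in DM (32.4%, beside 14.8% of all genes tested) and 1 was called lower (2.70%, beside 10.2% of all). Called higher were HMGCS1 and MVD of the mevalonate steps, FDFT1, SQLE, TM7SF2, MSMO1, HSD17B7 and SC5D of the sterol steps, and INSIG1, ACSS2, ABCA1 and LPIN1. The gene called lower was AACS. Without a minimum fold change, 27 genes passed an adjusted p under 0.05 as higher in DM (73.0%, beside 31.5% of all) and 5 as lower (13.5%, beside 31.4% of all), and MVK, ACLY, ACACA, ELOVL6 and ABCG1 passed in neither direction. The median log2 fold change of the 37 genes was 0.66, over a range of -1.06 to 2.88, against a median of 0.03 for all genes tested. The plots of values by sample and of fold changes set these genes out by role.

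**Figure D1:**
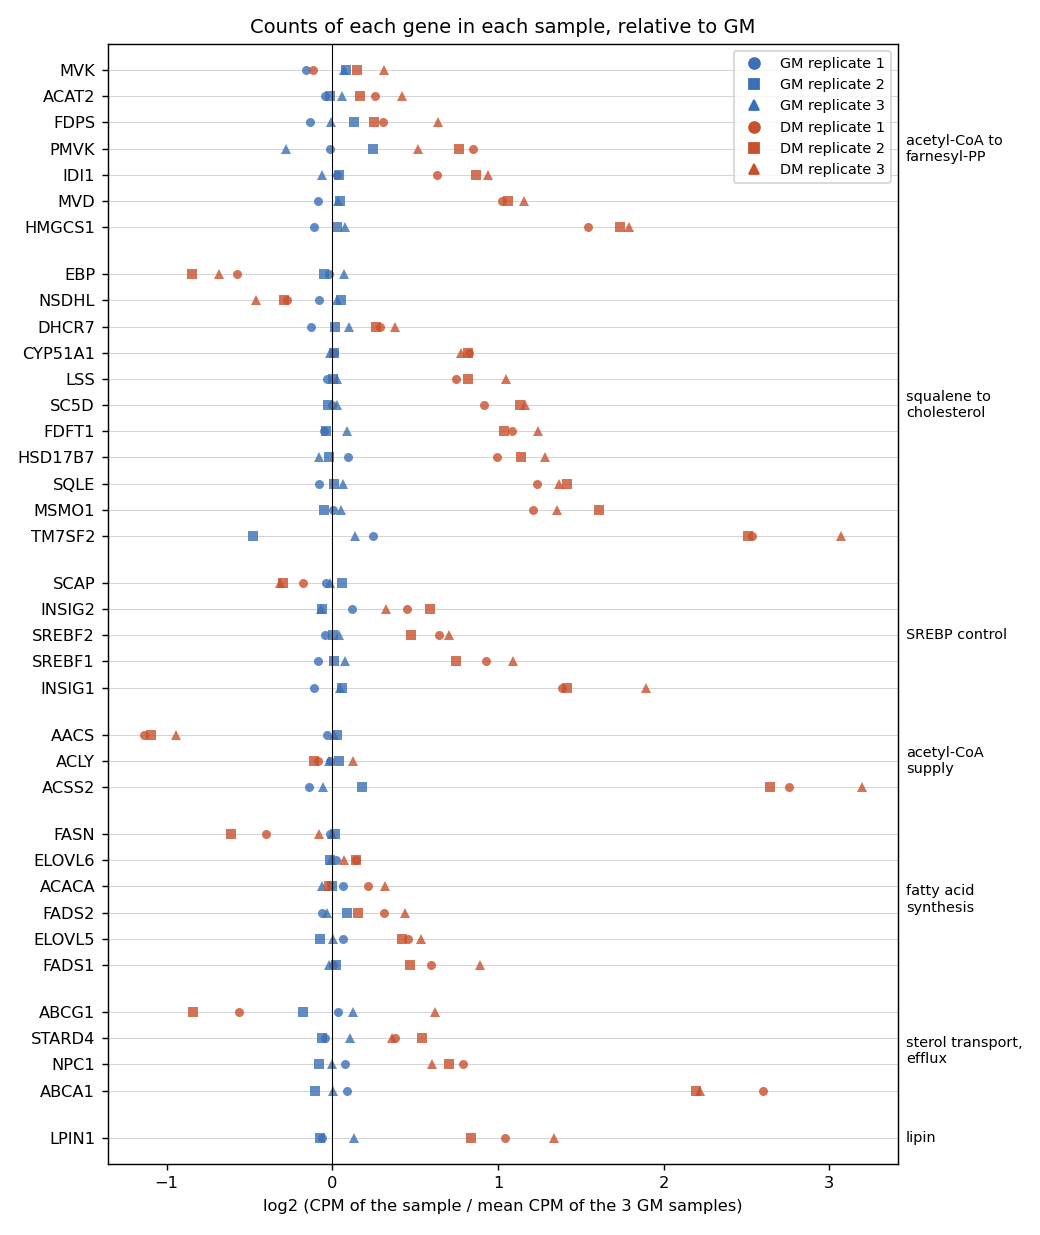
Each row is a gene, grouped by role, and each point is a sample, placed at the log2 ratio of its CPM to the mean CPM of the 3 GM samples, with blue for GM, orange for DM and a marker shape for each replicate. In 28 of 37 genes all DM points lie to the right of all GM points, in 5 they lie to the left, and in 4 the groups overlap.

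**Figure D2:**
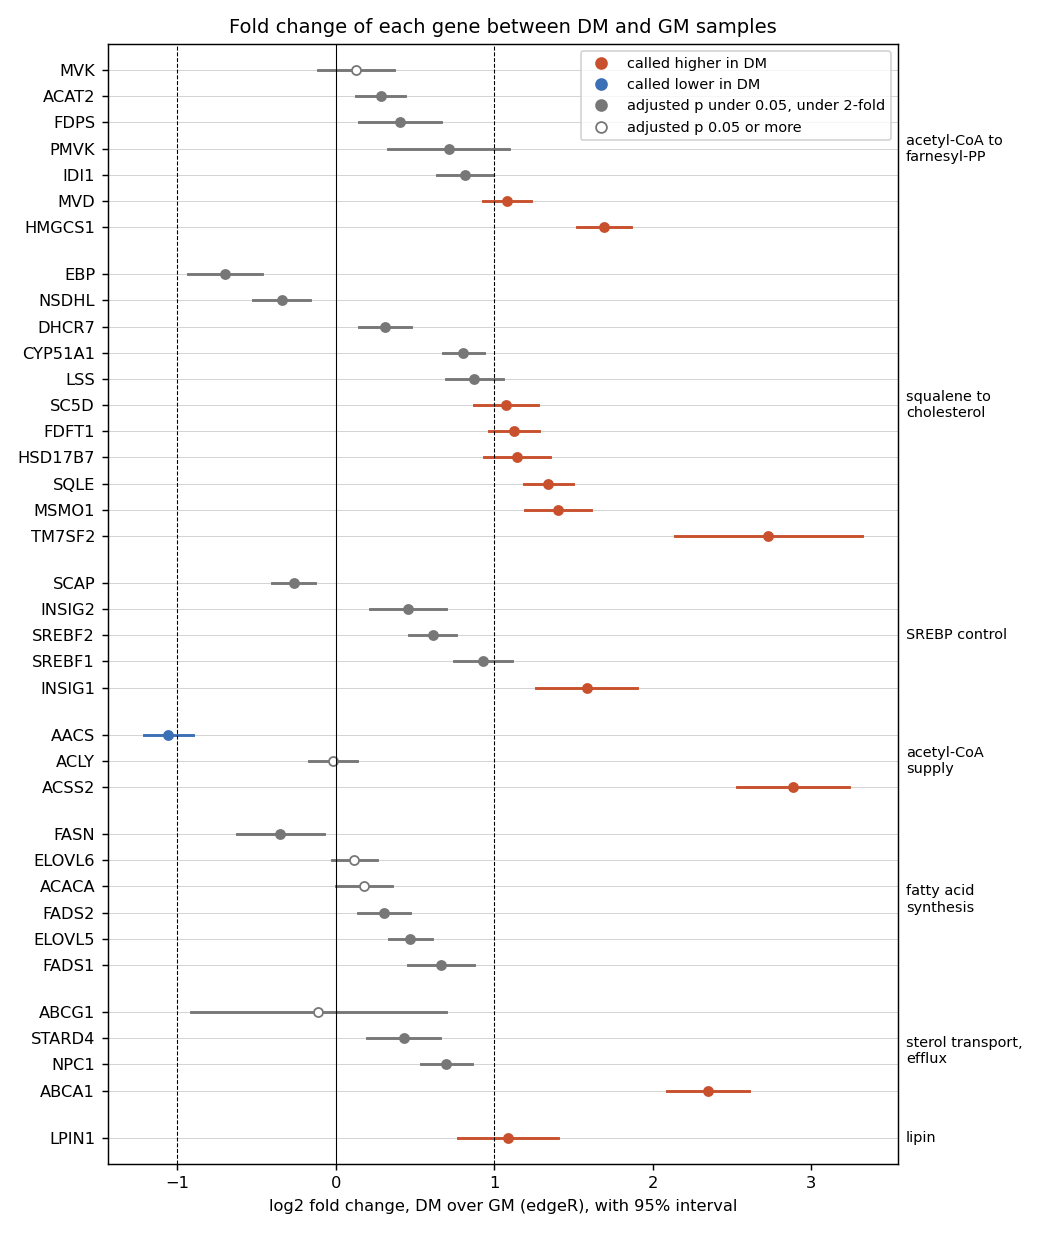
Points give the edgeR log2 fold change of DM over GM for each gene and bars its 95% interval, with dashed lines at a fold change of 2 in each direction. Orange marks the 12 genes called higher and blue AACS, called lower, and open points mark the 5 genes whose adjusted p was 0.05 or more.

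DM samples lay above all GM samples in 28 of the 37 genes, beside 34.5% of all genes tested, and below them in 5, beside 34.3% of all. All 13 called genes were among these, and their adjusted p stayed at or under 0.000758 when any 1 sample was left out. DM samples were more spread than GM samples in 32 of the 37 genes, by the coefficient of variation. The share of all genes tested was not counted for this, so it is not read as a trait of these genes. DM replicate 3 was the highest DM sample in 25 of them, beside 37.7% of all genes tested. Without it, 11 genes were called higher and 1 lower. Together the 37 genes took 0.336 to 0.342% of the counts in GM and 0.426 to 0.488% in DM samples.

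The steps from acetyl-CoA to farnesyl pyrophosphate held 2 genes called higher among 7 (28.6%, beside 14.8% of all genes tested). The larger difference was in HMGCS1 (ENSBTAG00000011839), the cytosolic HMG-CoA synthase, which had 73.4, 80.7 and 83.5 CPM in GM replicates 1, 2 and 3 and 231, 264 and 274 CPM in DM replicates 1, 2 and 3. Every DM sample was thus far above every GM sample, with a log2 fold change of 1.69 (SE 0.08, edgeR adjusted p = 9.31e-10). MVD (ENSBTAG00000012059), which decarboxylates mevalonate pyrophosphate, rose as well, from 36.7, 40.2 and 39.9 CPM in the GM samples to 79.3, 81.1 and 86.7 CPM in the DM samples, without overlap. Its log2 fold change of 1.08 (SE 0.07, edgeR adjusted p = 2.47e-08) lay close to the threshold, with a 95% interval of 0.93 to 1.23.

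Of the remaining genes of this segment, 4 were higher by less than 2-fold. IDI1, the isopentenyl pyrophosphate isomerase, had a log2 fold change of 0.82 (SE 0.08, edgeR adjusted p = 1.26e-06). PMVK, the phosphomevalonate kinase, was the lowest of the segment per length, at 4.22 RPKM in GM and 6.47 RPKM in DM samples, and had a log2 fold change of 0.71 (SE 0.18, edgeR adjusted p = 0.00324). ACAT2, the cytosolic acetoacetyl-CoA thiolase that feeds the pathway, was at 80.1 RPKM in GM and 91.2 RPKM in DM samples, the highest level of the segment in GM, and had a log2 fold change of 0.29 (SE 0.07, edgeR adjusted p = 0.00347). The ACAT2 row overlaps TCP1 on the other strand, which took 97514 counts over the 6 samples, and whether the counting used strand is not given in the sources used here. FDPS, the farnesyl pyrophosphate synthase, had a log2 fold change of 0.41 (SE 0.12, edgeR adjusted p = 0.00906), and the adjusted p was 0.055 without GM replicate 1. Its row spans 1066 bases for a length of 993 bases, nearly without introns. Whether reads of another FDPS copy were split or missed in counting was not tested, so this value is uncertain. MVK, the mevalonate kinase, had 26.7 ± 2.44 CPM in GM samples and 29.1 ± 4.26 CPM in DM samples and a log2 fold change of 0.13 (95% interval -0.11 to 0.37, edgeR adjusted p = 0.34).

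The steps from squalene to cholesterol held 6 genes called higher among 11 (54.5%, beside 14.8% of all genes tested). TM7SF2 (ENSBTAG00000005069), a sterol C14 reductase, showed the largest change of the cholesterol genes, with 6.51, 3.94 and 6.04 CPM in GM replicates 1, 2 and 3 and 31.9, 31.3 and 46.2 CPM in DM replicates 1, 2 and 3. Its lowest DM sample was well above its highest GM sample, with a log2 fold change of 2.73 (SE 0.24, edgeR adjusted p = 8.17e-05). SQLE (ENSBTAG00000005498), the squalene epoxidase and a rate-limiting step of the sterol segment, had 47.4, 50.5 and 52.4 CPM in the GM samples and 118, 134 and 129 CPM in the DM samples, and its log2 fold change was 1.34 (SE 0.07, edgeR adjusted p = 3.32e-09). The groups did not overlap. MSMO1 (ENSBTAG00000003068), the methylsterol monooxygenase that starts the removal of C4 methyl groups, had 28.4, 27.3 and 29.4 CPM in the GM samples and 65.6, 86.5 and 72.6 CPM in the DM samples. All DM samples were above all GM samples, at a log2 fold change of 1.40 (SE 0.10, edgeR adjusted p = 4.86e-08).

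FDFT1 (ENSBTAG00000012432), the squalene synthase, commits farnesyl pyrophosphate to sterols. It had 51.7, 52.2 and 57.1 CPM in the GM samples and 114, 110 and 127 CPM in the DM samples, with a log2 fold change of 1.12 (SE 0.07, edgeR adjusted p = 2.43e-08). HSD17B7 (ENSBTAG00000005976), which reduces the C3 ketone during C4 demethylation, had 15.5, 14.3 and 13.7 CPM in the GM samples and 29.0, 32.0 and 35.4 CPM in the DM samples, with a log2 fold change of 1.15 (SE 0.10, edgeR adjusted p = 2.58e-07). SC5D (ENSBTAG00000019246), the lathosterol desaturase, had 13.5, 13.3 and 13.8 CPM in the GM samples and 25.5, 29.7 and 30.3 CPM in the DM samples, with a log2 fold change of 1.07 (SE 0.09, edgeR adjusted p = 3.60e-07). In all of these genes the lowest DM sample exceeded the highest GM sample, and the lower ends of the 95% intervals were 0.97, 0.94 and 0.87 in that order.

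LSS, which folds squalene epoxide into lanosterol, and CYP51A1, which removes its C14 methyl group, were higher in DM by less than 2-fold (log2 fold change 0.88, edgeR adjusted p = 8.72e-07 for LSS; log2 fold change 0.81, edgeR adjusted p = 6.38e-08 for CYP51A1). DHCR7, a reductase of the final steps, differed less (log2 fold change 0.31, edgeR adjusted p = 0.00301). The exceptions in direction were NSDHL, a dehydrogenase that acts with MSMO1 in C4 demethylation, and EBP, the sterol isomerase. NSDHL had 30.5 ± 1.50 CPM in GM samples and 24.1 ± 1.68 CPM in DM samples (log2 fold change -0.34, edgeR adjusted p = 0.00308). EBP had 17.1 ± 0.737 CPM in GM samples and 10.5 ± 0.992 CPM in DM samples (log2 fold change -0.70, edgeR adjusted p = 7.54e-05). In both genes all DM samples were below all GM samples. Both lie on the X chromosome of the deposited annotation, where 23.4% of 599 tested genes were lower and 31.9% higher at an adjusted p under 0.05, with a median log2 fold change of 0.17.

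Over both segments, 8 of 18 genes were called higher (44.4%, beside 14.8% of all genes tested). At an adjusted p under 0.05, 15 of 18 were higher (83.3%, beside 31.5% of all) and 2 lower (11.1%, beside 31.4% of all). The median log2 fold change was 0.85. Per length, HMGCS1 went from 38.6 ± 2.47 RPKM in GM to 117 ± 12.0 RPKM in DM samples and stood above ACAT2 in the mean of DM but below it in GM. TM7SF2 stood at 3.46 RPKM in GM and 21.4 RPKM in DM samples, the lowest of both segments in GM. The plot of levels in pathway order sets the 18 genes side by side.

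**Figure D3:**
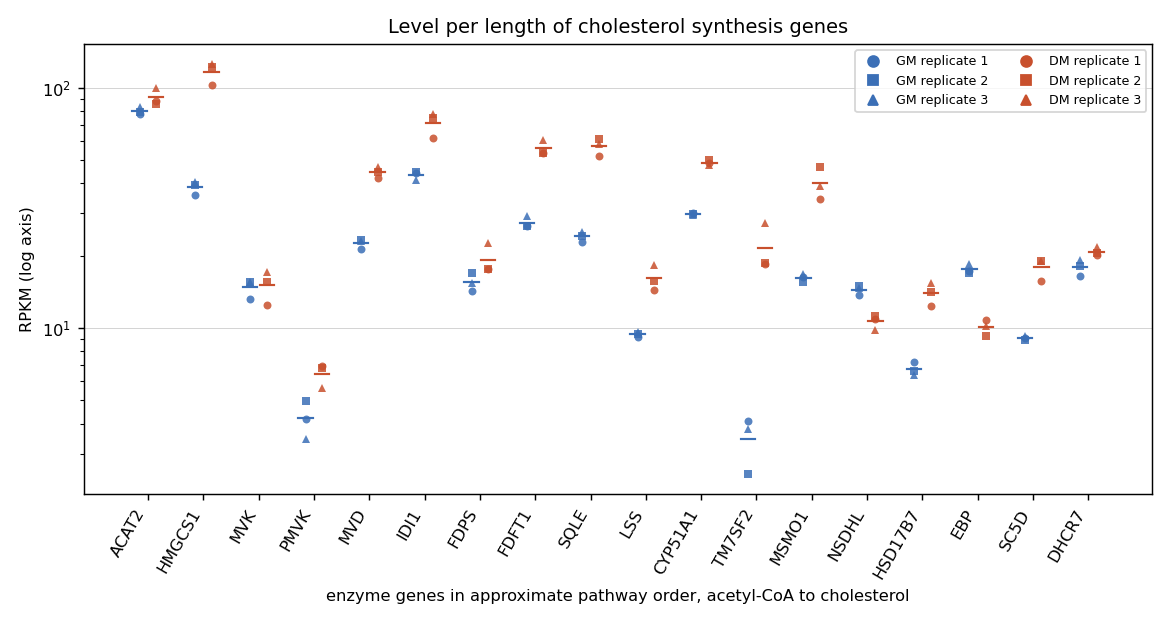
RPKM on a log axis of 18 cholesterol synthesis genes from acetyl-CoA (left) to cholesterol (right), with a point for each sample, a shape for each replicate, a bar at the group mean, and blue for GM and orange for DM. NSDHL and EBP are the genes whose DM points lie wholly below their GM points.

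Among the 5 genes of SREBP control, 1 was called higher, INSIG1 (20.0%, near the 14.8% of all genes tested). The genes of both SREBPs were higher by less than 2-fold. INSIG1 (ENSBTAG00000001592), a retention protein and itself a target of SREBPs, had 28.1, 31.5 and 31.3 CPM in GM replicates 1, 2 and 3 and 79.1, 81.0 and 112 CPM in DM replicates 1, 2 and 3. All DM samples were above all GM samples, DM replicate 3 furthest, with a log2 fold change of 1.58 (SE 0.14, edgeR adjusted p = 1.28e-05). INSIG2, the other retention protein, had 12.7, 11.2 and 11.1 CPM in the GM samples and 15.9, 17.5 and 14.6 CPM in the DM samples, with a log2 fold change of 0.46 (SE 0.11, edgeR adjusted p = 0.00269). Its groups did not overlap either. SREBF1 had 153, 164 and 171 CPM in the GM samples and 310, 273 and 347 CPM in the DM samples, again without overlap, and its log2 fold change of 0.93 (SE 0.08, edgeR adjusted p = 9.63e-07) was not called. Without DM replicate 2 the estimate was 1.03 and the gene was called. SREBF2 had 151, 156 and 160 CPM in the GM samples and 244, 217 and 254 CPM in the DM samples, all DM samples being above all GM samples, with a log2 fold change of 0.61 (SE 0.07, edgeR adjusted p = 3.99e-06). SCAP, the escort, went the other way, with 150, 161 and 153 CPM in the GM samples and 136, 126 and 124 CPM in the DM samples. Its groups did not overlap, at a log2 fold change of -0.26 (SE 0.06, edgeR adjusted p = 0.00249).

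The precursors of the microRNAs miR-33b and miR-33a, which target ABCA1, lie on the same strand within SREBF1 and SREBF2. The mir-33b row of the ncRNA table held 2, 4 and 8 counts in the GM samples and 8, 2 and 3 counts in the DM samples, overlapping between groups (log2 fold change 0.30, SE 0.80, edgeR adjusted p = 0.817 over the ncRNA table). The mir-33a row held 1 count in all. Libraries of polyadenylated RNA do not measure mature microRNAs, and reads of the host transcript cannot be told apart from those of the precursor.

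The enzymes that supply acetyl-CoA and its relatives to synthesis went in different directions. ACSS2 (ENSBTAG00000013303), which makes acetyl-CoA from acetate, had the largest log2 fold change of the 37 genes. It had 2.97, 3.70 and 3.14 CPM in GM replicates 1, 2 and 3 and 22.1, 20.4 and 30.0 CPM in DM replicates 1, 2 and 3. Its DM samples were all above its GM samples, with a log2 fold change of 2.88 (SE 0.16, edgeR adjusted p = 1.41e-08). AACS (ENSBTAG00000005678), which activates the ketone body acetoacetate for lipid synthesis, fell, from 84.7, 88.4 and 87.2 CPM in the GM samples to 39.4, 40.6 and 45.2 CPM in the DM samples. The groups did not overlap, at a log2 fold change of -1.06 (SE 0.07, edgeR adjusted p = 3.33e-08). ACLY, which splits citrate into acetyl-CoA, had 246, 256 and 245 CPM in the GM samples and 234, 231 and 271 CPM in the DM samples. DM replicate 3 was above every GM sample and the other DM samples below every GM sample, so the groups overlapped, with a log2 fold change of -0.02 (95% interval -0.17 to 0.13, edgeR adjusted p = 0.829). Per length, ACLY stood at 60.9 RPKM in GM and 56.2 RPKM in DM samples, against 1.17 RPKM in GM and 8.05 RPKM in DM samples for ACSS2 and 28.7 RPKM in GM and 12.9 RPKM in DM samples for AACS.

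In fatty acid synthesis, elongation and desaturation, none of 6 genes was called by edgeR or by DESeq2. Of all genes tested, edgeR called 14.8% higher and 10.2% lower, so no call among 6 genes is not read as a trait of this group. Of the 6 genes, 5 had an unadjusted edgeR p under 0.05, as did 66.3% of all genes tested. FASN, the fatty acid synthase, had the highest mean CPM of the 37 genes in both groups, with 873, 892 and 883 CPM in GM replicates 1, 2 and 3 and 668, 577 and 835 CPM in DM replicates 1, 2 and 3. All DM samples were below all GM samples, but they spread widely, at 882 ± 9.66 CPM in GM samples and 693 ± 131 CPM in DM samples. Its log2 fold change of -0.35 (SE 0.12, edgeR adjusted p = 0.0314) did not hold when single samples were left out: the adjusted p was 0.05 or more in 5 of 6 such fits, up to 0.12, and passed without DM replicate 3. ACACA, the acetyl-CoA carboxylase that makes malonyl-CoA, had 147, 141 and 135 CPM in the GM samples and 164, 139 and 176 CPM in the DM samples. The groups overlapped, with a log2 fold change of 0.18 (95% interval 0.00 to 0.35, edgeR adjusted p = 0.075). Without DM replicate 2 it was 0.28 (edgeR adjusted p = 0.00342).

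The desaturases and the elongase that act on polyunsaturated fatty acids were higher in DM by less than 2-fold, all without overlap. FADS1, the delta-5 desaturase, had 132 ± 1.96 CPM in GM samples and 208 ± 31.9 CPM in DM samples (log2 fold change 0.66, edgeR adjusted p = 9.08e-05). FADS2, the delta-6 desaturase, had 205 ± 11.6 CPM in GM samples and 254 ± 25.2 CPM in DM samples (log2 fold change 0.31, edgeR adjusted p = 0.00327). ELOVL5, the elongase of polyunsaturated chains, had 115 ± 5.47 CPM in GM samples and 160 ± 6.43 CPM in DM samples (log2 fold change 0.47, edgeR adjusted p = 2.13e-05). ELOVL6, which extends saturated and monounsaturated chains, had 55.6, 54.0 and 54.4 CPM in the GM samples and 60.4, 60.2 and 57.4 CPM in the DM samples, DM samples lying slightly above GM samples, with a log2 fold change of 0.12 (95% interval -0.02 to 0.26, edgeR adjusted p = 0.129). Per length, FADS1 stood at 88.8 RPKM in GM and 131 RPKM in DM samples and FASN at 111 RPKM in GM and 81.6 RPKM in DM samples, so that their order differed between the groups.

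Of the 4 sterol carriers, 1 was called higher, ABCA1 (25.0%, beside 14.8% of all genes tested). ABCA1 and ABCG1, which was not called, are both known LXR targets. ABCA1 (ENSBTAG00000020661), which exports cholesterol and phospholipid to apolipoprotein A-I, had 124, 109 and 117 CPM in GM replicates 1, 2 and 3 and 706, 535 and 543 CPM in DM replicates 1, 2 and 3. All DM samples were several-fold above all GM samples, with DM replicate 1 highest, at a log2 fold change of 2.35 (SE 0.11, edgeR adjusted p = 1.04e-07). ABCG1, which exports cholesterol to high-density lipoprotein, had 3.76, 3.24 and 4.01 CPM in the GM samples and 2.49, 2.05 and 5.65 CPM in the DM samples. DM replicate 3 was above every GM sample and the other DM samples below them, so the groups overlapped, at a log2 fold change of -0.11 (95% interval -0.92 to 0.70, edgeR adjusted p = 0.806). Without DM replicate 3 the log2 fold change was -0.69 (edgeR adjusted p = 0.00407), still short of a call. NPC1, which releases cholesterol from lysosomes, had 47.7 ± 2.65 CPM in GM samples and 77.5 ± 5.07 CPM in DM samples (log2 fold change 0.70, edgeR adjusted p = 2.43e-06). The NPC1 row overlaps C18orf8 on the other strand, which took 5388 counts in all. STARD4, a cytosolic sterol transfer protein induced by SREBPs, had 11.4 ± 0.739 CPM in GM samples and 15.4 ± 1.06 CPM in DM samples (log2 fold change 0.43, edgeR adjusted p = 0.00316).

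LPIN1 (ENSBTAG00000007689), the phosphatidate phosphatase that makes diacylglycerol for lipid synthesis, had 5.86, 5.82 and 6.70 CPM in the GM samples and 12.6, 10.9 and 15.5 CPM in the DM samples. The groups did not overlap, with a log2 fold change of 1.09 (SE 0.15, edgeR adjusted p = 2.11e-05). Without DM replicate 3 its log2 fold change was 0.95 and it was no longer called.

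Levels per length were also summed over each role group. The mevalonate genes summed to 219 ± 7.12 RPKM in GM and 365 ± 32.1 RPKM in DM samples (SD, n = 3), the sterol genes to 176 ± 5.11 and 313 ± 19.4 RPKM, and the SREBP control genes to 151 ± 4.01 and 218 ± 17.4 RPKM. The sterol carriers summed to 41.4 ± 2.19 and 111 ± 10.8 RPKM, most of the difference being that of ABCA1: without it the log2 ratio of the sums was 0.43 in place of 1.42. In these groups all DM samples exceeded all GM samples. The acetyl-CoA enzymes summed to 90.8 ± 1.91 and 77.1 ± 8.02 RPKM, DM samples being lower, and overlapped once RPKM was divided by the TMM factors. Fatty acid genes summed to 355 ± 3.86 and 393 ± 46.6 RPKM, with overlap. No test was run on these sums.

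**Figure D4:**
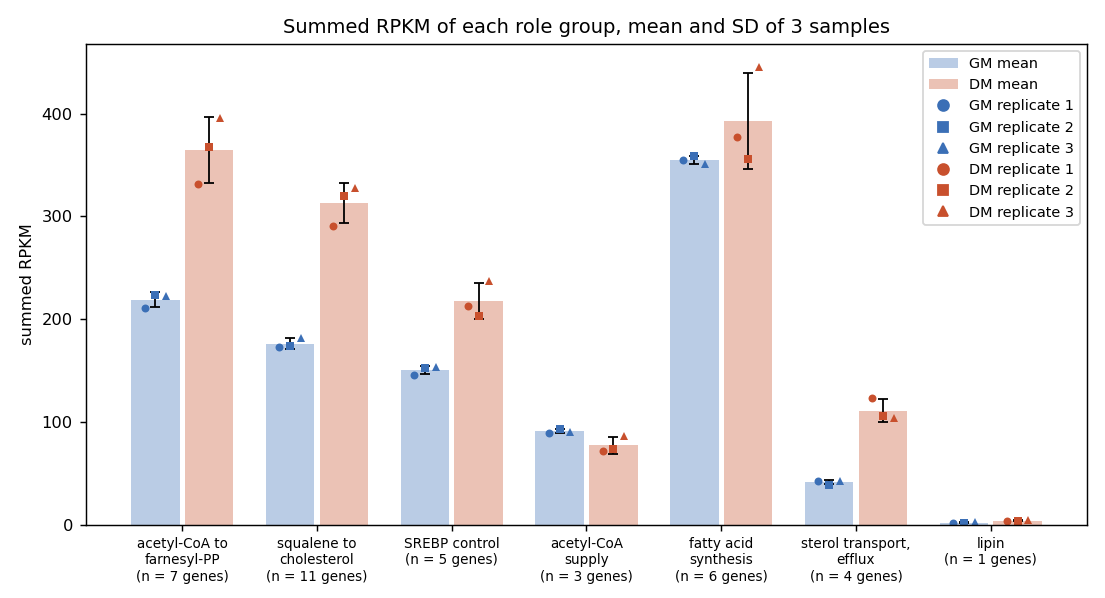
Bars give the mean summed RPKM of each role group in GM (blue) and DM (orange) samples, error bars the SD of 3 samples, and points the samples, with a shape for each replicate. The fatty acid genes are the group whose GM and DM points overlap, with DM replicate 3 highest.

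Other genes of the same pathways, 126 names in 8 lists, were examined beside these. Of the names, 111 were tested, and 12 were called higher and 5 lower (10.8% and 4.5%, beside 14.8% and 10.2% of all genes), with a median log2 fold change of 0.06. In the isoprenoid branch 1 of 10 tested genes was called, PDSS1, which builds the side chain of coenzyme Q and fell (log2 fold change -1.28, edgeR adjusted p = 1.06e-06). Among 16 genes of SREBP processing and sterol sensing, 1 was called, as lower (6.25%, beside 10.2% of all genes). This was ERLIN1, a membrane protein of the endoplasmic reticulum (log2 fold change -1.08, edgeR adjusted p = 1.07e-07). At an adjusted p under 0.05, 4 of the 16 were higher and 6 lower (25.0% and 37.5%, near the 31.5% and 31.4% of all genes). Uptake and intracellular transport held 4 genes called higher and 1 lower among 21 (19.0% and 4.76%, beside 14.8% and 10.2% of all genes). VLDLR, a lipoprotein receptor, rose from 40.9 ± 4.76 to 183 ± 12.1 CPM (log2 fold change 2.16, edgeR adjusted p = 5.87e-10), and GRAMD1C, which moves cholesterol from the plasma membrane to the endoplasmic reticulum, rose with a log2 fold change of 1.26 (edgeR adjusted p = 7.64e-06). SOAT2, which esterifies cholesterol, fell, with 40, 52 and 44 counts in the GM samples and 5, 6 and 10 counts in the DM samples (log2 fold change -2.51, edgeR adjusted p = 0.00014).

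The 10 tested genes of the LXR and oxysterol list had the highest median of the 8 lists, a log2 fold change of 0.93, with 4 called higher by edgeR (40.0%, beside 14.8% of all genes). APOE, the apolipoprotein that carries exported lipid, rose from 4.84 ± 0.811 to 31.8 ± 3.81 CPM (log2 fold change 2.71, edgeR adjusted p = 3.04e-09). MYLIP, a ubiquitin ligase that degrades lipoprotein receptors, rose from 4.23 ± 0.558 to 19.4 ± 3.82 CPM (log2 fold change 2.20, edgeR adjusted p = 7.32e-08). CYP46A1, the cholesterol 24-hydroxylase, rose at a low level, with 0, 5 and 2 counts in the GM samples and 21, 28 and 29 counts in the DM samples (log2 fold change 3.57, edgeR adjusted p = 0.000507). APOE and MYLIP are, like ABCA1, known targets of LXRs, and so is ABCG1, which was not called. Whether LXRs had a part in these differences was not tested.

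Among 19 other fatty acid synthesis genes tested, 2 were called higher (10.5%, beside 14.8% of all genes). MLXIPL, which encodes the glucose-responsive factor ChREBP, rose at a low level, with 6, 1 and 3 counts in the GM samples and 34, 45 and 24 counts in the DM samples (log2 fold change 3.49, edgeR adjusted p = 0.000144). ELOVL4, the elongase of very long chains, had 211, 183 and 149 counts in the GM samples and 610, 721 and 212 counts in the DM samples (log2 fold change 1.69, edgeR adjusted p = 0.0414), and its adjusted p was 0.05 or more when any sample but DM replicate 3 was left out, up to 0.119. In mitochondrial fatty acid synthesis 2 of 7 genes were higher and 3 lower at an adjusted p under 0.05, all by less than 2-fold (28.6% and 42.9%, beside 31.5% and 31.4% of all genes). Among 23 genes of acyl-CoA and glycerolipid synthesis, 2 were called higher and 1 lower (8.70% and 4.35%, beside 14.8% and 10.2% of all genes). GPAM, the mitochondrial glycerol-3-phosphate acyltransferase, rose from 17.1 ± 1.51 to 39.7 ± 2.28 CPM (log2 fold change 1.21, edgeR adjusted p = 7.30e-08). ACSL5, an acyl-CoA synthetase, rose (log2 fold change 1.24, edgeR adjusted p = 3.84e-07), and CDS1, which makes CDP-diacylglycerol, fell (log2 fold change -1.68, edgeR adjusted p = 0.0111), with an adjusted p of 0.0592 without GM replicate 1. The plot of the other pathway genes shows these lists side by side.

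**Figure D5:**
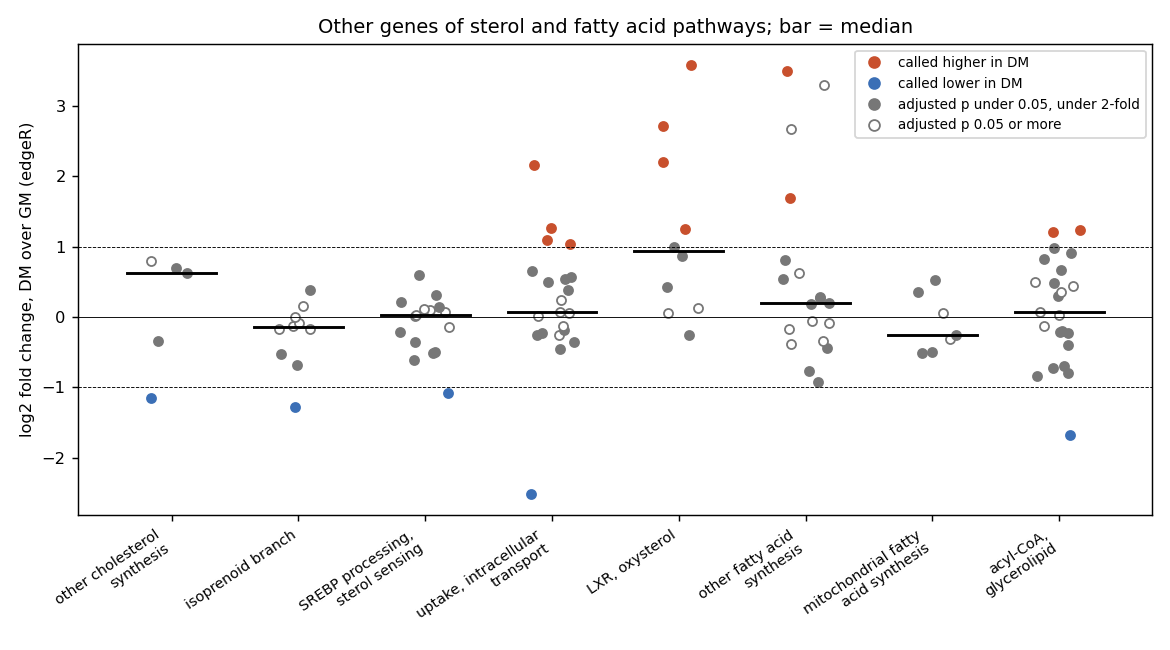
Each point is the edgeR log2 fold change of DM over GM of 1 gene in 1 of 8 lists, with a bar at the list's median, dashed lines at a fold change of 2 and open points for an adjusted p of 0.05 or more. Points are spread sideways at random so that they can be seen, and the LXR and oxysterol list has the highest median.

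The mRNA table, a count of the same libraries on transcripts, held 39 transcripts of the 37 genes, of which 12 were called higher (beside 15.3% of all transcripts tested) and 1 lower (beside 10.1%). LSS and INSIG2 had more than 1 transcript. The transcripts of LSS had log2 fold changes of 0.86 and 0.85, and those of INSIG2 of 0.45 and 0.44. The mRNA table counts reads shared by the transcripts of a gene on each of them, so their shares of expression were not read from it.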

How the data were processed

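RNA-seq of 6 samples of buffalo MuSCs, 3 GM and 3 DM, was analysed. The raw counts per gene, mRNA and ncRNA were deposited by the authors, who aligned reads with HISAT2 per the methods of the study. RPKM values were also deposited, and those of the gene table match the counts divided by the deposited length and each sample's summed counts. The study's supplement names a buffalo reference assembly and its annotation, and per the labels the submitters' processing notes name Bowtie 0.12.2 and mouse genome builds, while the tables list cattle Ensembl identifiers and name no build. These sources conflict, so the build behind the tables was not settled. The use of strand in counting is not given in the sources used here. Deposited lists of differential features, which hold the authors' log2 fold changes, p-values and q-values, were not used. No sample column was left unmapped.

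Counts were tested in R 4.3.3 with edgeR 4.0.16 (TMM, glmQLFit with robust estimation, glmQLFTest) over all features with at least 10 counts in total, with Benjamini-Hochberg adjustment over all features tested. Standard errors and 95% intervals came from the same fit. Called features had an absolute log2 fold change over 1 and an adjusted p under 0.05. In simulated data of the gene table, 178 of 200 genes changed 4-fold were recovered and 5 unchanged genes were called. Only these 200 of 15422 genes were changed there, and changes near 2-fold, such as that of MVD, were not simulated. Role sums of RPKM, list counts and figures were made in Python 3.11.15 with pandas 2.3.3 and numpy 2.4.6.

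The genes, the other pathway lists and the marker lists were chosen with earlier results of these data known. Values by sample are given for called genes, for HMGCS1, SQLE, SREBF1, SREBF2, SCAP, INSIG1, INSIG2, ACLY, ACACA and FASN, and for the 3 genes of smallest absolute log2 fold change. In the other lists up to 3 called genes of largest change per list are named. Some genes of these lists are not reported here. Alternatives were DESeq2 1.42.0, library size alone, RLE size factors, other filters on low counts, glmTreat against a fold of 2, an adjusted p alone with no minimum fold, a replicate block and each sample left out in turn. Dividing RPKM by the TMM factors was chosen after seeing the data. Promoter and protein sequences were not analysed here.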

Additional observations from a re-analysis of the deposited data

How the results depend on the processing

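With DESeq2, RLE size factors, no filter on low counts, filterByExpr or the RPKM rule in place of the reported choices, edgeR's 12 genes called higher and 1 called lower stayed within 1.5 times those counts, and so did the 12 and 1 transcripts. Under the 13 alternatives that keep the fold threshold (another tool, scaling or filter, the replicate block and single samples left out), 470 of 481 values of the 37 genes kept their direction and their side of the thresholds. With library size alone, 9 genes and 7 transcripts were called higher, MVD (log2 fold change 0.98), SC5D (0.98) and LPIN1 (0.99) falling below the threshold, and the median of all transcripts tested moved from 0.03 to -0.12. A test against a fold change of 2 (glmTreat) left 7 genes called higher (HMGCS1, SQLE, TM7SF2, MSMO1, INSIG1, ACSS2 and ABCA1), dropping MVD, FDFT1, HSD17B7, SC5D and LPIN1, and 0 lower, AACS being dropped, also 0 at an unadjusted p under 0.05, where edgeR's quasi-likelihood test and DESeq2 called 1, and 7 and 0 transcripts. For the other pathway genes it left 7 higher and 3 lower, with GRAMD1C, ERLIN1, ELOVL4 and CDS1 among those dropped. With no minimum fold change, 27 genes were higher and 5 lower, 29 and 5 transcripts, and 41 and 33 other pathway genes. The RPKM rule left 3 other pathway genes called lower.

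Leaving out 1 sample at a time gave 11 to 13 genes called higher and 1 to 1 lower, 11 to 14 and 4 to 5 other pathway genes, and 11 to 13 and 1 to 1 transcripts. LPIN1 lost its call without DM replicate 3 (0.95) and SREBF1 gained one without DM replicate 2 (1.03). ACLY turned positive under the RPKM rule (0.038) and without GM replicate 2 (0.0012), DM replicate 1 (0.023) or DM replicate 2 (0.039), and ABCG1 without DM replicate 1 (0.08) or 2 (0.17). Over the 6 such fits ACLY ranged from -0.090 to 0.039 and ABCG1 from -0.69 to 0.17. ACLY passed an edgeR adjusted p under 0.05 in none of these, and ABCG1 passed it, as lower, without DM replicate 3. Of the other pathway genes named, ELOVL4 and CDS1 also lost their calls under some alternatives that keep the fold threshold. ELOVL4 was also lost with no filter on low counts (edgeR adjusted p = 0.0616). The cause was not tested.

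Same-numbered GM and DM samples did not deviate together (r of -0.0076, -0.0218 and -0.0105 across genes), nor did samples of unlike number (r of -0.0121 to 0.0238). With 3 samples per group this cannot tell whether same-numbered samples came from the same culture or animal. A replicate block gave 12 genes called higher and 1 lower, 12 and 5 other pathway genes and 12 and 1 transcripts, and changed no call of the 37 genes.

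Without the gene of highest mean RPKM, the log2 ratio of summed RPKM went from 0.74 to 0.98 for the mevalonate genes (ACAT2 left out), from 0.53 to 0.40 for SREBP control (SREBF1), from -0.24 to -0.51 for acetyl-CoA supply (ACLY), from 0.15 to -0.024 for fatty acid genes (FADS1) and from 1.42 to 0.43 for sterol carriers (ABCA1). Divided by the TMM factors, the fatty acid sums no longer overlapped (0.25) and the acetyl-CoA sums did (-0.14). Low counts limit genes such as CYP46A1 and MLXIPL, and 3 samples per group limit all values.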
